A study of Homo sapiens with 4 samples.

Results

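The genes for the subunits of RNA polymerases I, II and III (Pol I, II and III) were examined in the pancreatic adenocarcinoma cell line PANC-1 and in PZT-2, a clone derived from it in which the histone variant H2A.Z is knocked down. Members were genes whose symbol in the deposited comparison of the lines begins with POLR1, POLR2 or POLR3 followed by a letter and that have a transcript in the deposited abundance table, and 30 such genes of the 15221 in that table are described here. Estimated counts were summed over the transcripts of each gene. Subunit genes listed under other symbols were CD3EAP, TWISTNB and ZNRD1 of Pol I and CRCP of Pol III. These are given beside the members but not counted with them.

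The study compared 2 libraries of untreated PANC-1 cells with 2 libraries of PZT-2, which carries lentiviral shRNAs, expressed from the U6 promoter with puromycin selection, against H2AFZ (isoform H2A.Z.1) and H2AFV (both H2A.Z.2 isoforms). PZT-2 is a single clone, and the PANC-1 cells were not transduced. A property of the clone, an effect of transduction, selection or shRNA expression and an effect of the knockdown therefore cannot be told apart. Libraries of the scrambled shRNA control were not analysed here. Both lines were grown in the same medium to the same passage range, and poly(A)-selected RNA was sequenced. The study calls the libraries of a line biological replicates, but nothing in the sources used here states that they came from separate cultures, so p-values measure only the spread between these libraries, which may be technical.

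Recovered counts per library ranged from 12861268 to 15717810. The targeted gene H2AFZ had normalized counts of 6389 and 6034 in PANC-1 and 2213 and 2258 in PZT-2 (log2 difference -1.47 ± 0.06, SE), and H2AFV had 3344 and 3452 against 2590 and 2717. H2AFZ fell by 64.0% and H2AFV by 21.9%, although the adjusted p of H2AFV was 0.0561 without PZT-2 replicate 1. The ductal keratins KRT8, KRT18 and KRT19 were abundant in each library and lower in PZT-2, by 1.17, 0.81 and 0.73 on the log2 scale, while KRT7 and EPCAM were at low counts (104 to 143 and 82.1 to 105) and did not pass the test. Of the fibroblast markers COL1A1 fell from 494 and 531 to 170 and 135 normalized counts and PDGFRB stayed at or under 15.1, and of the leukocyte and endothelial markers CD68 was at 1578 to 1708 and PECAM1 at or under 12.4, while COL1A2, DCN, LUM, PTPRC, CD3E and VWF had no row. The part of these keratin and collagen differences in the values of the subunit genes was not tested.

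Pol I transcribes the large ribosomal RNA precursor in the nucleolus, Pol II transcribes messenger RNAs and many small nuclear RNAs, and Pol III transcribes transfer RNAs, the 5S ribosomal RNA and other short RNAs. Each enzyme is built around its own pair of largest subunits, encoded by POLR1A and POLR1B, POLR2A and POLR2B, and POLR3A and POLR3B, which together form the active centre. POLR2E, POLR2F, POLR2H, POLR2K and POLR2L encode small subunits that all of the polymerases contain, and POLR1C and POLR1D encode a heterodimer shared by Pol I and Pol III. H2A.Z is placed in nucleosomes that flank the start sites of many Pol II genes.

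Promoter sequence from RefSeq (GRCh38.p14) was found for 21 of the 30 members. Of these, 16 held the GC box GGGCGG on either strand within the 250 bases before their first listed start, a motif held by 42.6% of all 35116 promoters of the same length, and 7 held the ETS core CCGGAAG, against 8.52%. The CCAAT box CCAAT was in 4, against 32.0%, and the TATA box TATAAA was in POLR2M alone, against 10.7%. Members were counted once each, while the shares over all promoters count every listed start of a gene. The median GC content of all promoters was 58%, and the promoters printed below had 62.8% to 82%. Motif shares were not adjusted for GC content. Shown here are the promoters of the shared subunits that moved in opposite directions, POLR2H, POLR2L and POLR2E, and of POLR3E, the Pol III subunit gene that rose. Capitals mark GC boxes, on either strand, and in POLR3E also 1 match to GGTTCGA, the core of the B box that transfer RNA genes carry inside their transcribed sequence.
POLR2H, chr3:184361460-184361709, plus strand, higher in PZT-2: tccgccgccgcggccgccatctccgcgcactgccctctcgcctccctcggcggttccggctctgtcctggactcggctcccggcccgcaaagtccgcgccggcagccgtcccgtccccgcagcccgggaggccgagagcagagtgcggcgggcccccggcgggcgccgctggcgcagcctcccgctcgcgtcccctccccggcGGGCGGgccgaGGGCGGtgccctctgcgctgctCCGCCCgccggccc
POLR2L, chr11:842530-842779, minus strand, lower in PZT-2: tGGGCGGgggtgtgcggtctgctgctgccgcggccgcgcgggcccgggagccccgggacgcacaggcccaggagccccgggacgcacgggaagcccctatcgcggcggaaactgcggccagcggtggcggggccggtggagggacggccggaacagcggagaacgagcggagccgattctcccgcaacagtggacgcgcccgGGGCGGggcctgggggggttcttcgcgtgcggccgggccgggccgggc
POLR2E, chr19:1095376-1095625, minus strand, lower in PZT-2: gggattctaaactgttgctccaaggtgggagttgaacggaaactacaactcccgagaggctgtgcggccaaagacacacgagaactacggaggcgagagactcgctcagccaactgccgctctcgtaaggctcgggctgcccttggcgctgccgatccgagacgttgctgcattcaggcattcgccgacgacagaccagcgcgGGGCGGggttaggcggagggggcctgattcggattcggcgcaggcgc
POLR3E, chr16:22297159-22297408, plus strand, higher in PZT-2: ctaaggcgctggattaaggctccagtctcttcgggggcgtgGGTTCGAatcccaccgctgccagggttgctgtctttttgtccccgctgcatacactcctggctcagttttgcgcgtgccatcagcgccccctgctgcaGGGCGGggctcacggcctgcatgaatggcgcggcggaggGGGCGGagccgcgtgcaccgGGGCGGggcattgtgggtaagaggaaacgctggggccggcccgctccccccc
GC boxes stood in the promoters of genes that rose and of genes that fell, with 3 in POLR2H and POLR3E, 2 in POLR2L and 1 in POLR2E. POLR2H has another listed promoter, at chr3:184363111-184363360, with 2 GC boxes, which is not shown. Which start is used in these cells was not tested. The B box search was added after the POLR3E sequence was seen. It matched 0.672% of all promoters and no other member. In the RefSeq annotation the gene immediately before POLR3E is TRL-AAG2-4, a leucine transfer RNA gene, the class of gene that Pol III transcribes. Whether the match lies inside that transfer RNA gene was not tested, so it is not read as an element of the POLR3E promoter.

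The subunit genes differed far more among themselves than between the lines. Levels between genes are given as TPM, the abundance of a transcript per unit of its length relative to all transcripts of a library. The deposited TPM do not add up to the same total in each library (1000097 and 975806 in PANC-1, 940619 and 943632 in PZT-2), so a level set across the lines includes this difference and the main test of the lines was run on counts. POLR2L, a small zinc-binding subunit shared by all of the polymerases, had the highest level, with 911 and 951 TPM in PANC-1 and 706 and 706 TPM in PZT-2. POLR2J4, a non-coding relative of POLR2J, had the lowest, with 2.09 and 1.66 TPM in PANC-1 and 2.34 and 2.54 TPM in PZT-2. The highest mean level was 496 times the lowest in PANC-1 and 289 times the lowest in PZT-2, and the median member had 41.8 and 43.8 TPM. The order of the levels began with POLR2L and POLR2G in both lines, and at the low end POLR3B, POLR3F, POLR3G and POLR2J4 held the last 4 places in both. Some neighbours in the order did not differ beyond their spread. In PANC-1 the libraries of POLR2I (152 ± 8.55 TPM, SD, n = 2) and POLR1E (144 ± 3.07) overlapped, as did those of POLR2H (139 ± 1.45) and POLR2J (137 ± 0.49) and those of POLR1A (28.5 ± 0.93) and POLR3A (28.1 ± 0.05), whereas POLR1E and POLR2H did not overlap.

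**Figure D1:**
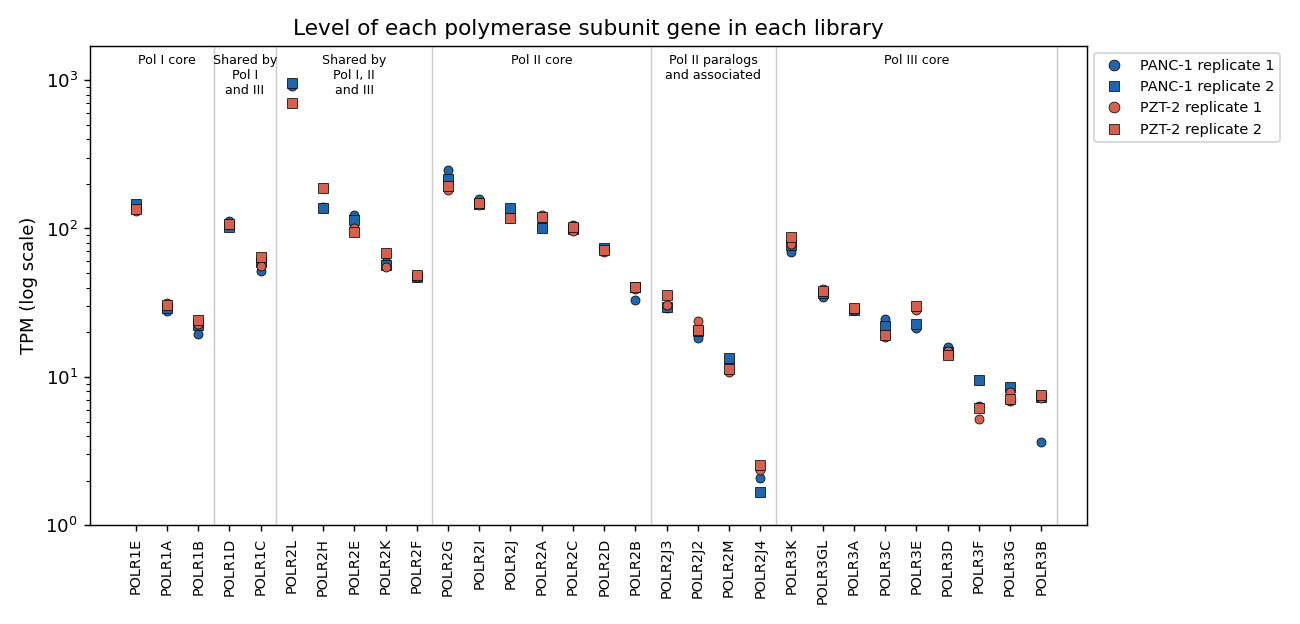
TPM of each of the 30 subunit genes on a log scale, grouped by polymerase, with 1 point per library (blue PANC-1, red PZT-2, circles replicate 1, squares replicate 2). POLR2L lies above 700 in all 4 libraries, POLR2J4 lies under 3, and in most columns the points of both lines lie close together.

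Among the largest subunits Pol II stood above the others. POLR2A, which carries the C-terminal repeat domain of Pol II, had 108 and 100 TPM in PANC-1 and 124 and 120 TPM in PZT-2. The ratio of POLR2A to POLR1A was 3.87 and 3.45 in PANC-1 and 3.95 and 3.94 in PZT-2. Against POLR3A the ratio of POLR2A was 3.84 and 3.57 in PANC-1 and 4.37 and 4.10 in PZT-2. Both ratios were higher in PZT-2 without overlap, but the smallest p that an exact permutation test of 2 against 2 libraries can give is 0.333. Within Pol II, transcripts of the largest subunit were 2.49 to 3.24 times as abundant as those of POLR2B, the second largest, and the lines overlapped. The Pol I pair, POLR1A and POLR1B, had a ratio of 1.26 to 1.43, again with overlap.

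Of the 30 members, all of which passed the filter of at least 5 counts in at least 2 libraries, 7 differed between the lines at an adjusted p below 0.05 (edgeR's quasi-likelihood test, Benjamini-Hochberg over all 15101 genes tested). That was 23.3% of the members, against 28.4% of all genes tested. POLR2A, POLR2H and POLR3E rose, 3 of 30 members, against 14.7% of all genes. POLR2E, POLR2J, POLR2L and POLR3C fell, 13.3% of the members against 13.7% of all genes. Of the 9496 genes whose mean count lay in the range of the members, 36.5% were called. The median log2 fold change of the members was 0.02, and that of all genes was 0.0009, with 15 members above 0 and 15 below. No member reached a 2-fold difference, which 5.54% of all genes did with an adjusted p below 0.05. The median size of the log2 difference was 0.18 over the members and 0.28 over all genes, and 0.23 over the genes in the members' range of counts. In 20 members (66.7%) the libraries of the lines did not overlap, against 66.3% of all genes. With bulk RNA, fewer cells that express a gene and less of its RNA per cell cannot be told apart.

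**Figure D2:**
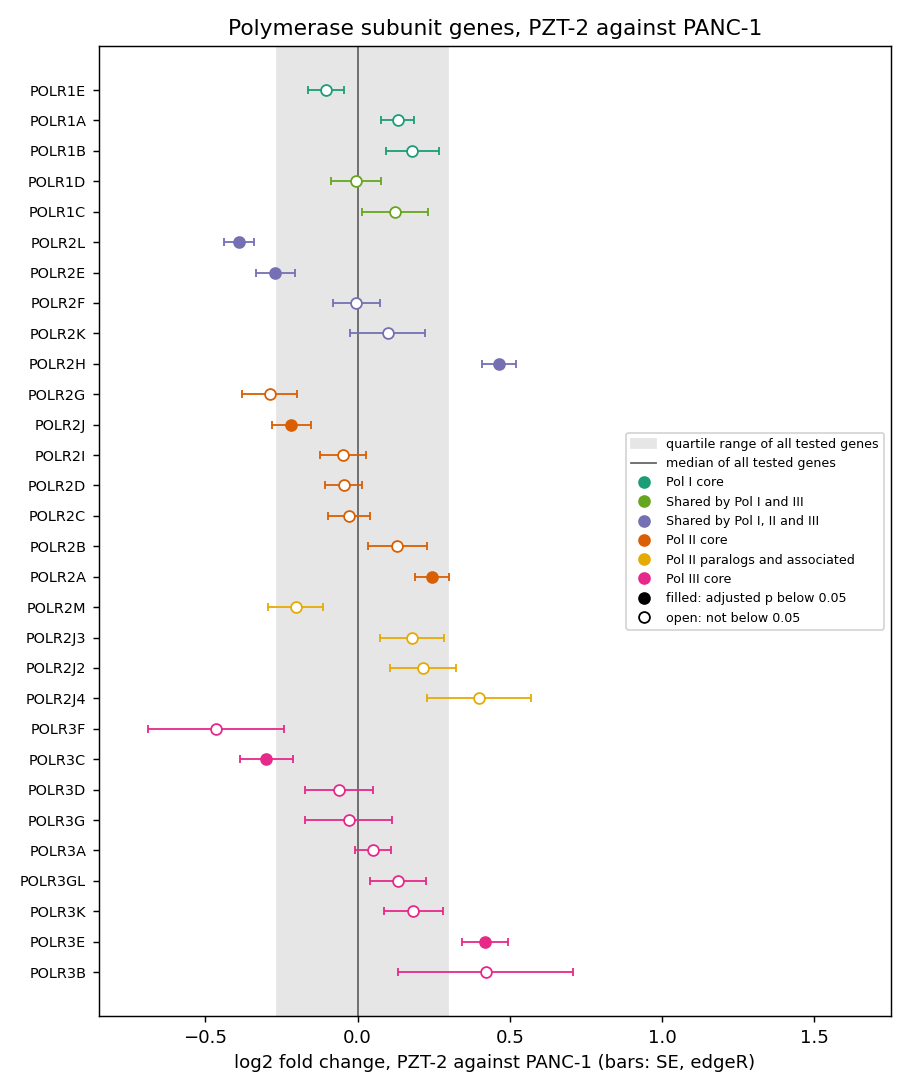
Log2 fold change of PZT-2 against PANC-1 with its SE for each of the 30 subunit genes, coloured by polymerase, with filled points for an adjusted p below 0.05. The grey band spans the quartiles of all tested genes and the line their median. The 7 filled points lie on both sides of 0, between -0.39 and 0.46.

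The subunits shared by all of the polymerases moved in both directions. Of 5 genes 1 rose and 2 fell, with a median log2 fold change of -0.0039. POLR2H had 1324 and 1314 normalized counts in PANC-1 and 1822 and 1818 in PZT-2. The replicates of each line lay within 11 counts of each other and those of the lines far apart. POLR2H rose by 38.0%, a log2 fold change of 0.46 ± 0.06 (SE, adjusted p = 0.00228). POLR2L, the gene with the highest level of all members, had 5715 and 5901 counts in PANC-1 and 4430 and 4433 in PZT-2. POLR2L fell by 23.7% (log2 fold change -0.39 ± 0.05, adjusted p = 0.0026), with both PZT-2 libraries below both PANC-1 libraries. POLR2E had 2710 and 2512 counts in PANC-1 and 2217 and 2113 in PZT-2. It fell by 17.1% (log2 fold change -0.27 ± 0.06, adjusted p = 0.0235). The study itself had picked POLR2E and POLR2L out of these libraries, so their direction is not independent evidence. The other shared genes did not pass the test, POLR2F with a log2 fold change of -0.0039 ± 0.08 and POLR2K with 0.10 ± 0.12.

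Since each enzyme holds a single copy of each shared subunit, the ratio of their transcripts was also followed. POLR2L was 6.52 and 6.92 times as abundant as POLR2H in PANC-1 and 3.76 and 3.77 times in PZT-2, by TPM. POLR2E was at 0.881 and 0.834 of POLR2H in PANC-1 and at 0.534 and 0.508 in PZT-2. Both ratios were lower in PZT-2 in each library, since their parts had moved in opposite directions. Summed over the 5 shared genes, the level went from 1280 and 1307 TPM in PANC-1 to 1095 and 1106 TPM in PZT-2, a sum in which POLR2L makes up the larger part and which includes the lower TPM total of the PZT-2 libraries.

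POLR2H lies on chromosome 3, and most genes of that chromosome were higher in PZT-2. Over the 836 genes tested there the median log2 fold change was 0.43, 48.3% were called higher and 2.51% lower. On the other 22 chromosomes with at least 100 tested genes the medians ran from -0.29 to 0.24. POLR2H exceeded the median of its chromosome by 0.04 on the log2 scale. Of its 20 nearest tested neighbours, 10 on each side, 17 were above 0, 11 were called higher and none was called lower, with a median of 0.38. The part of this chromosome-wide difference in the POLR2H result was not tested, and DNA copy number was not analysed here. POLR2H is the only member on chromosome 3. The other members that rose exceeded the medians of their chromosomes, POLR2A by 0.24 and POLR3E by 0.42 on the log2 scale. These distances were not set against the spread of genes within a chromosome. Of the 20 nearest neighbours of POLR2A, 4 were called higher and 1 lower, with a median of -0.02. Of those of POLR3E, 4 were called higher and none lower, with a median of 0.03. Around POLR2E on chromosome 19 the 20 nearest neighbours had a median of -0.33 with 7 called lower and 3 higher, although the chromosome's median was -0.05. For POLR2L the neighbours' median was -0.13, with 3 called lower and none higher.

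**Figure D3:**
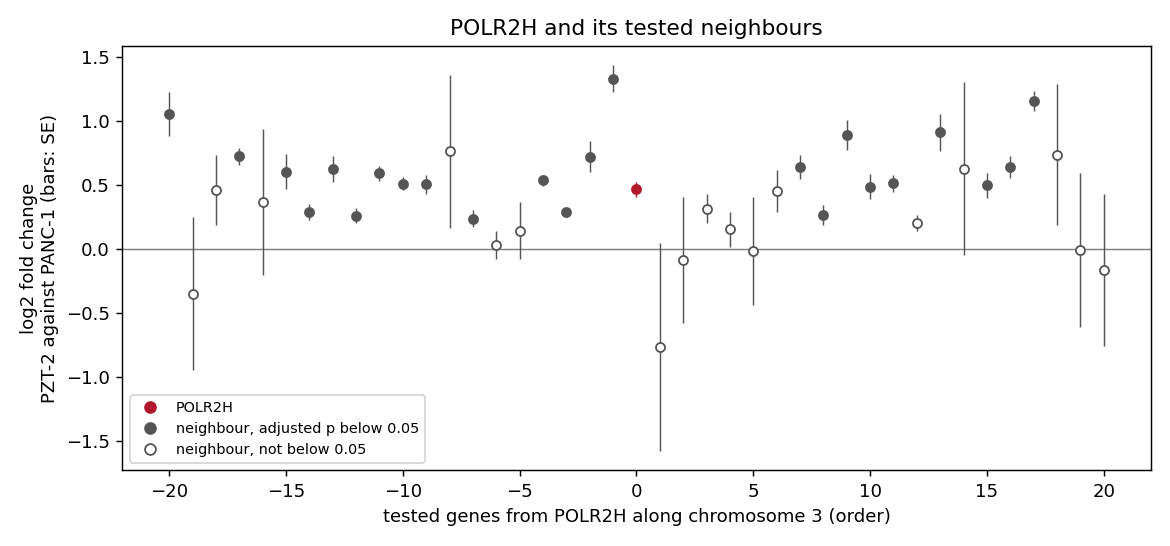
Log2 fold change with its SE of POLR2H (red) and of the 20 tested genes on each side of it along chromosome 3, by order and not by distance, with filled points for an adjusted p below 0.05. Most neighbours lie above 0, and POLR2H at 0.46 lies among them.

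Of the 7 genes of the Pol II core, 1 rose and 1 fell, with a median log2 fold change of -0.05. POLR2A, the catalytic subunit gene, had 5753 and 5348 counts in PANC-1 and 6650 and 6486 in PZT-2. It rose by 18.3% (log2 fold change 0.24 ± 0.06, adjusted p = 0.0208). POLR2B, which closes the active centre with it, had 1051 and 1272 counts in PANC-1 and 1256 and 1292 in PZT-2, groups that overlapped. POLR2J had 933 and 928 counts in PANC-1 and 800 and 800 in PZT-2. It fell with a log2 fold change of -0.22 ± 0.06 (adjusted p = 0.046). Its partner in the assembly of the enzyme, POLR2C, had a log2 fold change of -0.03 ± 0.07. POLR2G and POLR2D encode the stalk that protrudes from the enzyme. POLR2G had 1408 and 1201 counts in PANC-1 and 1035 and 1098 in PZT-2, with an adjusted p of 0.0561, and POLR2D had a log2 fold change of -0.05 ± 0.06. POLR2I, a small subunit near the jaw of the enzyme, had -0.05 ± 0.07.

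The paralogs and the associated factor of Pol II did not pass the test in any of 4 genes. POLR2J2, POLR2J3 and POLR2J4 had log2 fold changes of 0.21, 0.18 and 0.40, above 0, while POLR2J itself had fallen. Their transcripts share much of their sequence. In GENCODE 29 transcripts 34.9% of the 31-base words of POLR2J, 100% of those of POLR2J2 and POLR2J3 and 33.9% of those of POLR2J4 also occur in other genes, so the division of reads among them, and with it their values, is uncertain. The same share was 33.1% for POLR2M, which encodes a protein that binds Pol II and restrains its initiation, 26.2% for POLR3GL and 13.9% for POLR2D. Of the 7 members called, POLR2J alone was over 10%, and POLR2A was not matched. POLR2M had 416 and 451 counts in PANC-1 and 366 and 388 in PZT-2, with an adjusted p of 0.145.

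No gene of the Pol I core passed the test. POLR1A, the largest subunit, had 2854 and 2979 counts in PANC-1 and 3231 and 3158 in PZT-2. The log2 difference was 0.13 ± 0.06 (adjusted p = 0.128). POLR1B had 0.18 ± 0.09 and POLR1E, part of a heterodimer bound to the enzyme, -0.10 ± 0.06. In all 3 genes the lines did not overlap, which held for 66.3% of all genes. POLR1A and POLR1B lie on chromosome 2, where the median was 0.12, and exceeded it by 0.01 and 0.06. The part of that chromosome-wide difference in their values was not tested. CD3EAP, the partner of POLR1E, had a log2 fold change of 0.17 ± 0.08. TWISTNB, a stalk subunit, had 235 and 322 counts in PANC-1 and 204 and 191 in PZT-2 (adjusted p = 0.0655), and ZNRD1, a small zinc-binding subunit, had 412 and 357 against 305 and 312 (adjusted p = 0.0691). Both genes lay below PANC-1 in both PZT-2 libraries but missed the threshold. TWISTNB passed it with at least 10 counts in each library (adjusted p = 0.0468) and without PANC-1 replicate 1 (0.0028), and ZNRD1 passed it under limma-trend (0.0358 and 0.0379) and without PANC-1 replicate 2 (0.0188). Of the heterodimer shared with Pol III, POLR1C had a log2 fold change of 0.12 ± 0.11 and POLR1D of -0.01 ± 0.08, both with overlap.

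Of 9 members of the Pol III core, 1 rose and 1 fell, with a median log2 fold change of 0.05. POLR3E had 625 and 656 counts in PANC-1 and 824 and 889 in PZT-2. It rose by 33.7% (log2 fold change 0.42 ± 0.08, adjusted p = 0.00887), while POLR3D, with which it forms a heterodimer akin to a Pol II initiation factor, had -0.06 ± 0.11. CRCP, a stalk subunit of Pol III, had -0.09 ± 0.10. POLR3C, POLR3F and POLR3G form a subcomplex that opens the promoter. POLR3C had 755 and 671 counts in PANC-1 and 567 and 589 in PZT-2. It fell by 18.8% (log2 fold change -0.30 ± 0.09, adjusted p = 0.0431). POLR3F had the most negative estimate of all members, -0.47 ± 0.22, without passing the test (adjusted p = 0.172). POLR3G had -0.03 ± 0.14 and its paralog POLR3GL, which takes its place in part of the enzyme, 0.13 ± 0.09. POLR3GL was 4.33 to 5.38 times as abundant as POLR3G, by TPM, with overlap between the lines. The largest subunit POLR3A had 0.05 ± 0.06, and POLR3K, needed for termination, 0.18 ± 0.10.

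The PANC-1 replicates differed most in POLR3B and POLR3F, Pol III genes of low level, and the PZT-2 replicates in POLR2K, with 364 and 455 counts. POLR3B, the second largest subunit of Pol III, had 122 and 246 counts in the PANC-1 libraries and 242 and 257 in those of PZT-2. PANC-1 replicate 1 stood alone and the other 3 libraries lay together. The ratio of POLR3A to POLR3B was accordingly 7.73 in PANC-1 replicate 1 and 3.82 to 3.95 in the other 3 libraries. POLR3F had 104 and 154 counts in PANC-1 and 85.6 and 102 in PZT-2, with PANC-1 replicate 2 above the rest. In both genes PANC-1 replicate 2 exceeded replicate 1 by at least 1.4 times, a limit chosen after the values were seen. This held for 1.20% of 10052 genes with a mean of at least 100 counts. A PANC-1 gap of that size in either direction was seen in 2.88% of them. No member had such a gap between the PZT-2 libraries. Without PANC-1 replicate 2 the log2 fold change of POLR3B was 1.03 (adjusted p = 0.000976), and without replicate 1 it was 0.02. Without PANC-1 replicate 1 POLR3F had -0.72 (adjusted p = 0.018).

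The calls differed in how far they rested on single libraries. POLR2H and POLR2L kept an adjusted p below 0.05 with each library left out in turn, at log2 fold changes of 0.45 to 0.47 and of -0.42 to -0.37. POLR2L was called in all 14 alternatives without a fold minimum. POLR3E lost it without PZT-2 replicate 2 (adjusted p = 0.0672). POLR2A and POLR2E lost it without either PZT-2 library. Their adjusted p without PZT-2 replicates 1 and 2 was 0.134 and 0.102 for POLR2A and 0.0838 and 0.167 for POLR2E. POLR2J lost it with any library left out, at 0.0686 to 0.2, and POLR3C with any but PANC-1 replicate 2, at 0.115 to 0.173. Leaving out PANC-1 replicate 2 added calls of POLR1B (adjusted p = 0.0414), POLR2B (0.0176), POLR2G (0.00206) and POLR3B. In no case did a member of the 7 turn its direction. With the most abundant transcript of each gene alone POLR2H lost its call (log2 fold change 0.34, adjusted p = 0.0805), as did POLR2A (0.0573), POLR2E (0.0656), POLR2J (0.0984) and POLR3C (0.0807). POLR2A and POLR2J have 1 transcript each, and 1 transcript held 98.7% of the counts of POLR2E. Their log2 fold changes therefore stayed at 0.24, -0.22 and -0.27, in a setting that called 2128 genes instead of 4286. The lost calls of these genes do not show that they rested on minor transcripts. POLR3C also lost its call under limma-trend (0.0631 and 0.0627) and DESeq2 (0.109), and POLR2J under DESeq2 (0.167). Each of the fits with a library left out leaves a line with a single library, which is assumed to vary like the other line.

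**Figure D4:**
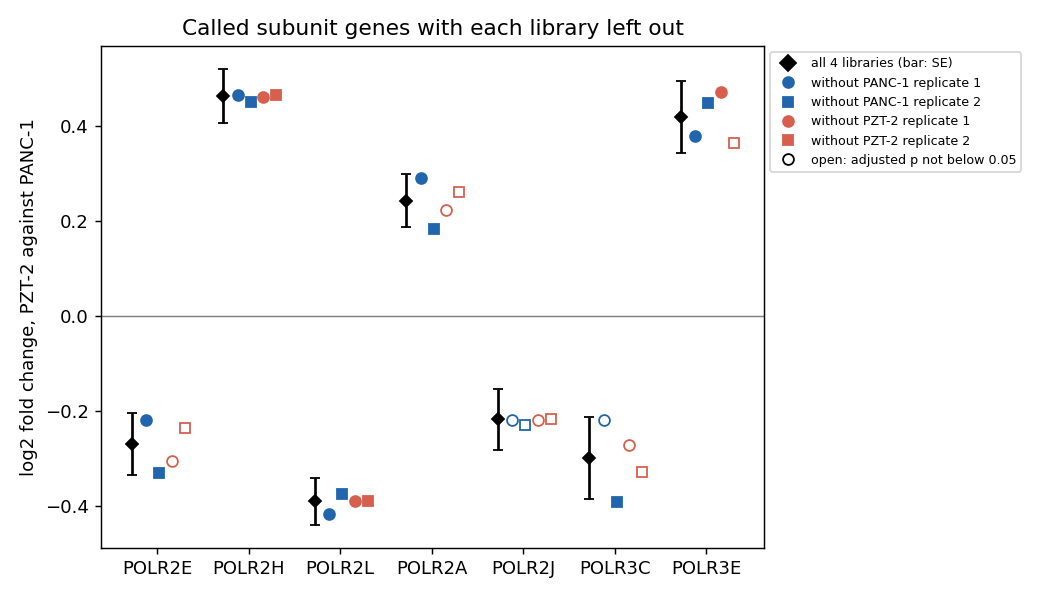
Log2 fold change of the 7 called subunit genes from all 4 libraries (black, with SE) and with each library left out (blue PANC-1, red PZT-2, circles replicate 1, squares replicate 2), with open symbols where the adjusted p was not below 0.05. All points of a gene stay on its side of 0, and POLR2H and POLR2L alone have filled symbols throughout.

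Transcripts were also tested singly. The 30 genes had 54 transcripts, of which 53 passed the filter and none had an adjusted p below 0.05 (edgeR's quasi-likelihood test), while 11 had an unadjusted p below 0.05. Over all 30403 transcripts tested 0.148% passed and 5614 had an unadjusted p below 0.05. The closest member was the single transcript of POLR2L, NM_021128, with a log2 fold change of -0.40 ± 0.04 and an adjusted p of 0.0732. POLR2H had 5 transcripts, of which NM_001278698 held 54.0% of the counts, NM_001278700 24.1%, NM_006232 17.7% and NM_001278699 3.85%. The log2 fold changes of these 4 were 0.33, 0.45, 0.55 and 1.81, all above 0. The dominant transcript of POLR3E, NM_018119, held 93.7% of its counts and had 0.43 ± 0.09. Counts per transcript rest on the division of reads among isoforms by the authors' tool and are less certain than the sums.

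Genes that work with the polymerases were taken from fixed lists. Of 100 such genes, all tested, 10 rose and 14 fell, against 14.7% and 13.7% of all genes, with a median log2 fold change of 0.04. None of 9 Pol I factors passed the test, at a median of 0.14. Of 18 general transcription factors of Pol II, GTF2E1 (0.65 ± 0.09) and GTF2A2 (0.40 ± 0.08) rose and GTF2A1 (-0.59 ± 0.11) fell. GTF2A1 and GTF2A2 both encode subunits of TFIIA. Of 15 TBP-associated factors of TFIID, none rose and 5 fell, in order of adjusted p TAF9B (-1.07 ± 0.11), its paralog TAF9 (-0.40 ± 0.07), TAF1 (-0.45 ± 0.10), TAF3 (-0.64 ± 0.14) and TAF2 (-0.44 ± 0.11). Of 23 pausing and elongation factors 3 rose, RTF1 (0.67 ± 0.07), LEO1 (0.74 ± 0.09) and SUPT6H (0.23 ± 0.05), and 4 fell, SSRP1 (-0.32 ± 0.05), HEXIM1 (-0.40 ± 0.07), AFF4 (-0.32 ± 0.07) and PAF1 (-0.18 ± 0.04). RTF1 and LEO1, which rose, and PAF1, which fell, belong to the PAF1 complex, which travels with elongating Pol II. Of its other genes in the list CDC73 had -0.29 ± 0.09 (adjusted p = 0.0549) and CTR9 0.11 ± 0.08. HEXIM1 holds the pause release kinase inactive. Of 17 Pol III factors, GTF3C2 (0.64 ± 0.06) and GTF3C3 (0.35 ± 0.09) rose and GTF3A (-0.30 ± 0.06) and GTF3C6 (-0.29 ± 0.06) fell, and all of these except GTF3A, the factor of 5S RNA genes, encode subunits of TFIIIC. Of 12 factors that assemble or import the polymerases, GPN1 (0.65 ± 0.07) and RUVBL1 (0.17 ± 0.05) rose and RUVBL2 (-0.51 ± 0.06) and UXT (-0.45 ± 0.07) fell. Of 6 mitochondrial transcription genes, TFB2M (0.39 ± 0.10) rose. TAF2, TAF3 and PAF1 fall outside the rule of up to 3 genes a direction and were named after their values were seen. CDC73 and CTR9, which were not called, fall outside it too. GTF2E1 and RUVBL1 also lie on chromosome 3. RTF1, LEO1 and GTF2A2 lie on chromosome 15, where the median was 0.24 and 27.4% of genes were called higher, and GTF3C2, GTF3C3 and GPN1 on chromosome 2, with a median of 0.12 and 25.1%. TAF9B, TAF1 and UXT lie on chromosome X, where the median was -0.29 and 36% were called lower. The part of these chromosome-wide differences in the values of these genes was not tested. Of the 21 genes named by the rule, 8 were called with each library left out, GTF2E1, TAF9B, RTF1, LEO1, GTF3C2, GPN1, RUVBL2 and UXT. Without PZT-2 replicate 2, 12 lost the call (GTF2A2, GTF2A1, TAF1, SUPT6H, SSRP1, HEXIM1, AFF4, GTF3C3, GTF3A, GTF3C6, RUVBL1 and TFB2M, adjusted p 0.0603 to 0.234), and without PZT-2 replicate 1, 7 did (TAF9, SUPT6H, GTF3C3, GTF3A, GTF3C6, RUVBL1 and TFB2M, 0.0614 to 0.206). Without PANC-1 replicate 1, GTF3C3 and TFB2M lost it (0.0672 and 0.0727), and without PANC-1 replicate 2 RUVBL1 did (0.0623). TAF3 lost its call without PZT-2 replicate 2 (0.109), PAF1 without either PZT-2 library (0.126 and 0.196) and TAF2 without any but PANC-1 replicate 1 (0.0709 to 0.12).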

How the data were processed

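RNA-seq was analysed for 2 libraries of PANC-1 and 2 of PZT-2. The authors trimmed reads with Trim Galore 0.4.1, and made the deposited estimated counts and TPM per RefSeq transcript with kallisto 0.43.0 and sleuth 0.29.0. The labels list hg19. Whether strand was used is not given in the sources used here. The columns of the authors' own comparison (effects, p and q values) were not used beyond gene symbols. The deposited counts carry a factor per library (1.16, 0.935, 1.03 and 1.01), as sleuth exports them, which was undone. Afterwards 40.8% to 42.9% of values from 0.5 to 30 lay within 0.01 of a whole number, against 0.915% to 2.39% as deposited. Transcripts were assigned by symbol (27049) or RefSeq accession (3925), and 103 with 0.0466% of the counts stayed unnamed and were left out.

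Rounded counts were summed per gene and tested with edgeR 4.0.16 in R 4.3.3 (TMM factors, quasi-likelihood test, at least 5 counts in at least 2 libraries, Benjamini-Hochberg threshold 0.05). Errors are SE of the fit or SD over 2 libraries. On simulated counts for 15101 genes of this comparison, 98 of 100 genes changed by a log2 of 1 and 72 of 100 changed by 0.5 were recovered. Named are all members, the 4 subunits under other symbols, both targets and, in each companion list, up to 3 called genes in each direction by adjusted p. Of the genes that meet the rule, 1 is not reported here. Members and lists were chosen with earlier results of these data known. Words of 31 bases were compared in GENCODE 29 transcripts. Chromosomes, gene order and promoters come from RefSeq on GRCh38.p14.

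Alternatives were RLE factors, DESeq2 1.42.0, no filter, a minimum of 10 counts in each library, limma-trend (limma 3.58.1) on log2(TPM + 1) and log2(TPM + 0.1), the replicate block, counts as deposited, the most abundant transcript alone, symbols of the table alone, each library left out and a 2-fold minimum.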

Additional observations from a re-analysis of the deposited data

How the results depend on the processing

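Over all genes 4286 were called, and 3 members were called higher and 4 lower. With the most abundant transcript of each gene alone these counts were 2128, 1 and 1, and with a 2-fold minimum 836, 0 and 0. DESeq2 and the replicate block each called 2 members lower. With 1 library left out the counts ranged from 2009 to 4614 genes, from 1 to 6 members higher and from 1 to 4 members lower, and the lowest came without a PZT-2 library. The replicate block called 3750 genes. Same-numbered replicates deviated with a correlation of -0.02, so the numbers are not read as pairs, and the calls of POLR2J and POLR3C lost under the block are not read as weaker effects. POLR2G and TWISTNB gained a call under the stricter filter on counts and ZNRD1 under limma-trend. The called members kept their direction in all 14 alternatives. Sign changes were seen in CRCP and in members that were not called in the main test. Their main log2 fold changes ran from -0.09 (CRCP) to 0.13 (POLR2B). POLR1D had 0.00797 and CRCP 0.0136 with the most abundant transcript alone, and POLR2F 0.0209 and 0.0213 under limma-trend with pseudocounts of 1 and 0.1. With 1 library left out POLR1D ranged from -0.0994 to 0.0749, POLR2B from -0.00182 to 0.271, POLR2C from -0.0832 to 0.0245, POLR2F from -0.049 to 0.0397, POLR2I from -0.122 to 0.012, POLR2K from -0.0704 to 0.249, POLR3G from -0.172 to 0.128 and CRCP from -0.197 to 0.0161. The cause of these changes was not tested.

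With 2 libraries a group the spread is poorly known, and 0.333 is the smallest p that exact permutation allows. Genes changed by a log2 of 0.5 were recovered in 72 of 100 cases in the simulation. That step is larger than the difference of any member, which ran from -0.47 to 0.46. The simulation changed far fewer genes than were called in the data, all of them with a mean of at least 100 counts. Its share recovered is therefore not a measure for differences of the size seen here, which could be missed. A p above the threshold does not show that a subunit did not differ.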

Other observations

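RNAs made by Pol III and Pol I were read in these poly(A)-selected libraries. They were chosen after their values were seen, and no explanation was tested. RN7SK, the RNA that binds HEXIM1, had 32.6 and 34.3 normalized counts in PANC-1 and 83.5 and 47.5 in PZT-2. RN7SL1, the RNA of the signal recognition particle, had 91.1 and 114 against 286 and 62.3, and RN7SL2 had 99.0 and 99.4 against 244 and 68.2. RMRP had 10.1 and 26.2 against 42.3 and 9.89, and RPPH1 did not exceed 21.1 in any library. In these 5 RNAs PZT-2 replicate 1 was the highest library, in 4 of them the lines overlapped, and none passed the test. VTRNA1-2 was lower in PZT-2, with 7.88 and 9.94 against 5.03 and 5.93, and did not pass it either. BCYRN1 had 260 and 193 against 348 and 347 and did pass it. It lies on chromosome 2, where 25.1% of genes were called higher. Sequence shared with other genes was not examined for these RNAs. The 13 listed ribosomal RNA copies took 0.448% and 0.577% of the counts in PANC-1 and 0.497% and 0.322% in PZT-2.

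PAF1 and SUPT5H, elongation factors encoded on chromosome 19, stood far above the rest of their list in level in both lines. Both fall outside the rule for naming genes, and SUPT5H was not called. PAF1 had 1083 and 1054 TPM in PANC-1 and 948 and 925 TPM in PZT-2, and SUPT5H had 948 and 932 TPM against 1006 and 1015 TPM. The median gene of that list had 27.9 to 34.5 TPM.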
